A study of Mus musculus with 2 samples.

Results

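Mir140 and Mir455 are miRNA genes known from cartilage, and their levels were read here in newborn mouse skeletal muscle. They were picked by name, as the rows whose Ensembl identifiers carry these symbols in the GENCODE annotation of mm10, and they are 2 of 1973 listed genes. They were proposed with their counts in these libraries already known, so their levels and their ratio between pups are descriptions with no test. Small RNA was sequenced from total RNA of skeletal muscle of mice of strain B6NCrl at postnatal day 0. The 2 libraries came from 2 pups of litter 1, and they are the 2 biological replicates of the only group, without a treatment or a mutation. They are called pup 1 and pup 2 here. The sex of the pups was not collected, and the labels name neither the muscle nor what else was removed with it.

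A miRNA is cut from a folded hairpin in a longer transcript. It then guides the silencing complex to messenger RNAs through its seed, bases 2 to 8 from its 5′ end. In mice miR-140 is abundant in chondrocytes, the cells of cartilage, and loss of its gene disturbs the growth of the skeleton and the upkeep of joint cartilage. Its host gene Wwp2 encodes a ubiquitin ligase. miR-455 also acts in chondrocytes, and its host gene Col27a1 encodes a fibrillar collagen of cartilage. SOX9, the transcription factor that directs the chondrocyte programme, is known to act on both host loci.

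The Mir140 hairpin is shown because every read counted for the gene has to fall in it. Capitals mark the miR-140-3p arm, bases 45 to 65 counted from 1 at the 5′ end of the hairpin. The sequences here are RefSeq's on GRCm38.p6, the assembly that mm10 names, and the entries found were 1 hairpin and 1 mature arm for Mir140 and 2 mature arms for Mir455.
Mir140 hairpin: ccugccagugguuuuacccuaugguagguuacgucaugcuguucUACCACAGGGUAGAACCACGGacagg
Folded with RNAfold, this hairpin of 70 bases formed 30 base pairs, with 20 of the 21 bases of the miR-140-3p arm paired, at a predicted minimum free energy of -39.1 kcal/mol.

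The mature arms are shown with the seed in capitals, each beside the mouse miRNAs of the table that carry the same seed, to show which miRNAs read the same target letters.
miR-140-3p: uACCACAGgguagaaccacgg
miR-497b: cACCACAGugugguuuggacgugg
miR-455-5p: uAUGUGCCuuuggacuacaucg
miR-5129-3p: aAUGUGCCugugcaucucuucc
miR-455-3p: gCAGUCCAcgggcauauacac
The 3 arms shown carry 3 different seeds. The seed of miR-140-5p was not analysed here. The seed of miR-140-3p was shared with miR-497b alone, that of miR-455-5p with miR-5129-3p alone, and that of miR-455-3p with none of the 1738 mature sequences compared. Having a seed to itself was common, at 68.0% of these mature sequences. The genes that share a seed with these 3 arms had almost no own-strand counts. Mir497b had 0 counts in pup 1 and 0 in pup 2, and Mir5129 had 0 in pup 1 and 3 in pup 2. The 5p and 3p arms of a hairpin are summed in a gene's count, so the arm from which the reads of Mir140 or Mir455 came cannot be read from these tables.

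Mir140 (ENSMUSG00000065439) lies on the plus strand of mm10 at chr8:107551244-107551313, and its host Wwp2 runs on the same strand. It sits 114879 bases into the 122231 bases of Wwp2, near the end of the gene. Of the 4 Wwp2 transcripts that span it, 3 have an intron there, which follows exon 16 in the first protein-coding transcript. The other is a retained-intron transcript of 1 exon that includes it. Mir455 (ENSMUSG00000070102) lies on the plus strand at chr4:63256851-63256932, 42847 bases into the 120988 bases of Col27a1, again on its host's strand. All 4 Col27a1 transcripts that span it have an intron there, which follows exon 10 in the first protein-coding transcript. No other miRNA gene lies within 10 kb of Mir140 or of Mir455. Neither shares an identical stretch of 20 bases with another of the 2202 miRNA genes compared. Near-identical copies, with a mismatch inside every such stretch, were not looked for.

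Pup 1 gave 3754895 own-strand counts in miRNA genes and pup 2 gave 5133949, which were 52.6% of reads in pup 1 and 51.6% in pup 2. Reads that map to several places, 30.2% in pup 1 and 29.9% in pup 2, were kept apart from the gene counts. CPM below is a gene's own-strand count scaled to 1000000 own-strand miRNA gene counts. A count of 0 allows up to 3 counts, or 0.799 CPM in pup 1 and 0.584 CPM in pup 2. Molecular identifiers are absent from the tables, and every interval or floor given here is for counting error alone. Mir206, a miRNA gene of skeletal muscle, had 79447 CPM in pup 1 and 87198 CPM in pup 2, so this 1 gene of the labelled tissue was abundant in each library.

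Mir140 was abundant in pup 1 and moderate in pup 2. It had 24555 counts in pup 1 and 4959 in pup 2. As a level this was 6539 CPM in pup 1 (95% exact Poisson interval 6458 to 6622) and 966 CPM in pup 2 (939 to 993). The 2 intervals lie far apart, and the mean of 3753 ± 3941 CPM (SD, n = 2) has an SD larger than itself, so it describes neither library. Of all counts, Mir140 held 0.654% in pup 1 and 0.0966% in pup 2.

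Mir455 differed far less between the libraries. It had 5172 counts in pup 1 and 5061 in pup 2, which were 1377 CPM (1340 to 1415) in pup 1 and 986 CPM (959 to 1013) in pup 2. Pup 1 was the higher, and the counting intervals did not overlap. Its mean was 1182 ± 277 CPM (SD, n = 2), and 23 other genes had a mean within 1 SD of it. It held 0.138% of counts in pup 1 and 0.0986% in pup 2. Together the genes held 0.792% of counts in pup 1 and 0.195% in pup 2. Opposite-strand counts were 0 for Mir140 and 0 for Mir455 in each library, which allows at most 3 counts, or up to 0.0605% of the own-strand count for Mir140 in pup 2, the lowest of the 4 own-strand counts.

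**Figure D1:**
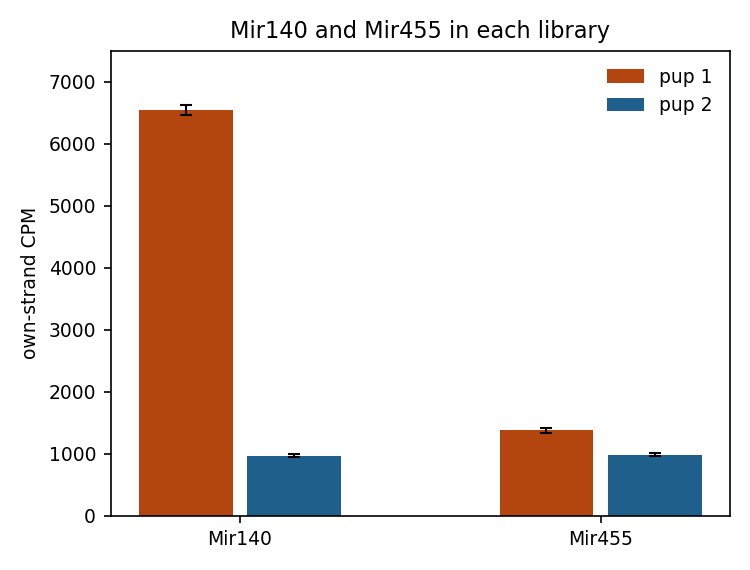
Own-strand CPM (vertical axis, from 0) of Mir140 and Mir455 in pup 1 (left bar of each pair) and pup 2 (right bar); error bars are 95% exact Poisson intervals for counting error. The bar of Mir140 in pup 1, 6539 CPM, stands above the other 3, which lie between 966 and 1377 CPM.

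The ratio between pups was large for Mir140 and small for Mir455. After scaling with edgeR's TMM factors, the log2 ratio of pup 1 over pup 2 was 2.63 for Mir140, a fold of 6.18 (95% counting interval 5.99 to 6.37). For Mir455 it was 0.35, a fold of 1.28 (1.23 to 1.33). Genes with at least 10 counts in total numbered 373, and the median of their log2 ratios was -0.0059, with the middle 50% between -0.31 and 0.32. Mir455 lay just above that middle range. Of these genes, 24 were at least 2-fold higher in pup 1, which is 6.43%, and 7 were at least 2-fold higher in pup 2, which is 1.88%, making 8.31% at least 2-fold apart. Of the 2 cartilage-linked genes 1, Mir140, was among the 24. With 1 library per pup this ratio has no replicate check, and differences between the pups cannot be told apart from differences in dissection or library preparation. Scaling to total counts gave a log2 ratio of 2.76 for Mir140 and 0.48 for Mir455. Scaling to the counts of the striated muscle list, chosen after seeing the data, gave 2.89 for Mir140 and 0.62 for Mir455. Nearly all counts of that list were those of Mir206.

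The ratio of Mir140 to Mir455 does not depend on library scaling. In pup 1 there were 4.75 Mir140 counts for each Mir455 count (95% interval 4.61 to 4.89, from an exact Clopper-Pearson interval). In pup 2 there were 0.980 (0.942 to 1.02), an interval that includes equal counts. The log2 ratio of Mir140 to Mir455 was therefore 2.28 higher in pup 1 than in pup 2 (2.20 to 2.35). Per base of annotated hairpin, 70 bases for Mir140 and 82 for Mir455, the ratio was 5.56 in pup 1 and 1.15 in pup 2. The order of the genes in pup 2 was thus not resolved by counts, while Mir140 was the higher per hairpin base. Mature miRNAs are arms of the hairpin, so counts need not scale with its length. In bulk tissue, more cells of a type and more RNA per cell cannot be told apart.

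The ranks show the same split. By CPM among the listed genes, Mir140 ranked 31 in pup 1 and 89 in pup 2, and Mir455 ranked 76 in pup 1 and 87 in pup 2. In pup 1 the neighbours of Mir140 were Mir483, a miRNA gene inside Igf2, at 6983 CPM and Mir214, a connective tissue miRNA gene, at 6248 CPM. Their counting intervals did not overlap that of Mir140. In pup 2 its neighbours were Mir495 at 985 CPM, whose interval overlapped, and Mir92-1 at 912 CPM, whose interval did not. Around Mir455 the order was not resolved. Mir125a (1413 CPM) and Mir485 (1343 CPM) flanked it in pup 1, Mir20a (992 CPM) and Mir495 flanked it in pup 2, and the counting intervals of all of them overlapped that of Mir455. By mean CPM Mir140 ranked 48, between Mir30d at 3921 ± 283 CPM and Mir17 at 3681 ± 969 CPM. Mir455 ranked 84, between Mir410 at 1205 ± 162 CPM and Mir18 at 1149 ± 82.6 CPM (SD, n = 2 each), and these neighbours differ from it by less than its SD.

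**Figure D2:**
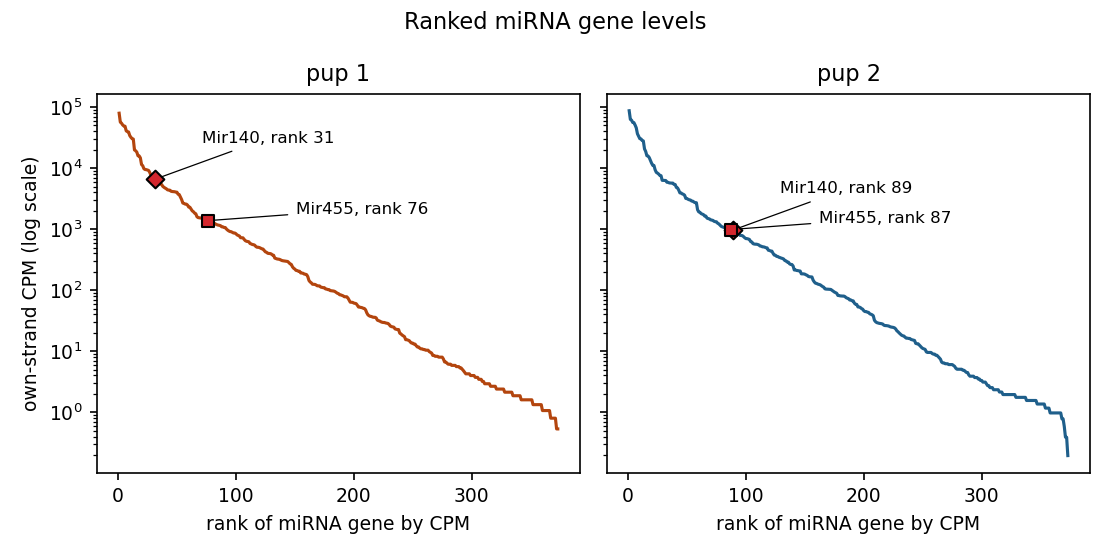
CPM of each miRNA gene with at least 10 counts in total (vertical axis, log scale) against its rank in that library, for pup 1 (left) and pup 2 (right), with Mir140 (diamond) and Mir455 (square) marked. Mir140 stands at rank 31 in pup 1 and at rank 89 in pup 2, next to Mir455 at rank 87.

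Many genes had a pattern close to that of Mir455, and none had one close to that of Mir140. Likeness was the distance between genes in log2(CPM + 1) over the 2 libraries, so it reflects level and ratio together and rests on 2 points a gene. Nearest to Mir455 was Mir342 at a distance of 0.082, with 1425 CPM in pup 1 and 1032 CPM in pup 2. Mir15a followed at 0.12, Mir20a at 0.16, Mir18 at 0.24 and Mir425 at 0.26. In all, 37 genes lay within a distance of 1 of Mir455, while 0 lay within that distance of Mir140. How many other genes also lack a gene within that distance was not counted, so this is not shown to be particular to Mir140. Nearest to Mir140 was Mir17 at 1.73, with 4366 CPM in pup 1 and 2995 CPM in pup 2, and then Mirlet7b at 1.81, Mir10a at 1.83, Mir98 at 1.85 and Mir151 at 1.87. The mean levels of these 5 ran from 1953 CPM for Mir10a to 3681 CPM for Mir17, and their log2 ratios from 0.016 for Mir151 to 0.41 for Mir17.

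By ratio alone, Mir140 ranked 9 of the 373 genes for pup 1 over pup 2. The 8 genes with a higher log2 ratio were the 7 of the epithelium and skin list and Mir294, which had 9 counts in pup 1 and 1 in pup 2 and was named after its values were seen. Among genes with a mean of 100 CPM or more, the nearest in ratio were Mir182 (1.96), of a cluster known from sensory and epithelial cells, and Mir708 (1.32), inside Tenm4. Then came Mir203 (4.44), a miRNA gene of differentiating skin, Mir148a (0.74) and Mir16-2 (0.64). Mir182 reached that mean only through pup 1, with 222 CPM in pup 1 and 52.0 CPM in pup 2. Mir205 (5.42), a miRNA gene of stratified epithelia, also reached it only through pup 1, with 843 CPM in pup 1 and 17.9 CPM in pup 2. The genes nearest to Mir455 in ratio were Mirlet7a-2, Mir107, Mir195a, Mir199b and Mir342, with log2 ratios from 0.33 to 0.36.

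**Figure D3:**
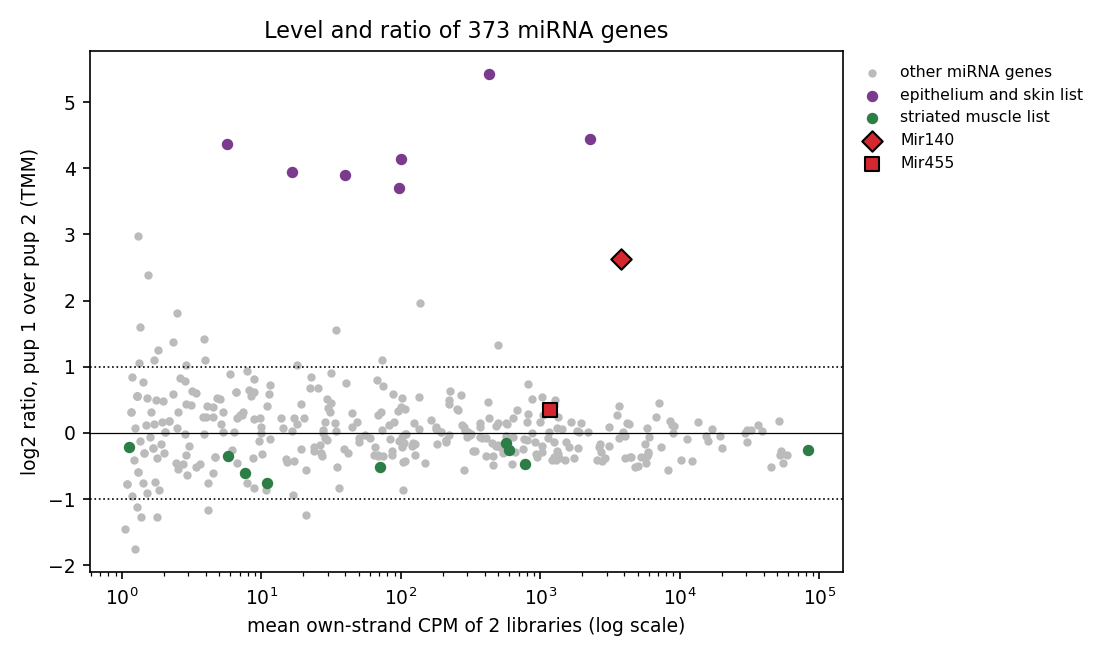
Log2 ratio of pup 1 over pup 2 after TMM scaling (vertical axis) against mean CPM (horizontal axis, log scale) for the 373 genes with at least 10 counts in total; dotted lines mark 2-fold. Mir140 (diamond, 2.63) lies below the 7 genes of the epithelium and skin list (3.71 to 5.42), and Mir455 (square, 0.35) lies within the main cloud.

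The miRNA genes of epithelium and skin were higher in pup 1, as Mir140 was. All 7 of the list were at least 2-fold higher in pup 1, beside 6.43% of all 373 genes. The list was chosen with earlier results of these data known. Its 7 genes are also among the 24 behind that 6.43%, so the comparison is partly with itself and is no test. Mir200a and Mir141 reach the minimum total count only through pup 1, with 2 and 9 counts in pup 2. None of the 7 was at 0 in either library, and their median log2 ratio was 4.13. Their summed share was 0.569% of counts in pup 1 (exact binomial 95% interval 0.561 to 0.576) and 0.0230% in pup 2 (0.0217 to 0.0243), a ratio of 24.8. Mir203 had 16356 counts in pup 1 and 938 in pup 2, and Mir205 had 3167 in pup 1 and 92 in pup 2. The genes of the Mir200 family, which hold back the transition from epithelium to mesenchyme, were lower in level. Among them Mir429 had 710 counts in pup 1 and 50 in pup 2, and Mir200c had 685 in pup 1 and 65 in pup 2. Mir200b had 280 in pup 1 and 23 in pup 2, Mir141 had 117 in pup 1 and 9 in pup 2, and Mir200a had 41 in pup 1 and 2 in pup 2. Mir140 did not keep a fixed proportion to this list, with 1150 Mir140 counts for every 1000 list counts in pup 1 and 4206 in pup 2. For Mir455 the values were 242 in pup 1 and 4293 in pup 2. The part of epithelial tissue in the Mir140 ratio was not tested.

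Other tissue lists differed much less between the libraries. All 9 measured genes of the striated muscle list had a lower value in pup 1, with a median log2 ratio of -0.35, and 0 of the 9 were at least 2-fold apart. Of all 373 genes, 189 (50.7%) had a lower value in pup 1. Mir206 was the highest of the striated muscle list, with 298316 of its 305436 counts in pup 1 and 447669 of 458799 in pup 2. The list held 8.13% of counts in pup 1 and 8.94% in pup 2, a share that is nearly that of Mir206 alone. Its genes Mir1a-1, Mir133a-1 and Mir133a-2 were low, with at most 6.39 CPM in pup 1 and 8.96 CPM in pup 2. The fibroblast and smooth muscle list, led by Mir143 at 30088 ± 137 CPM (SD, n = 2), held 4.57% in pup 1 and 4.21% in pup 2. The endothelial gene Mir126a had 40785 CPM in pup 1 and 36558 CPM in pup 2. White blood cell genes, led by Mir223, held 0.0646% in pup 1 and 0.0458% in pup 2, and red blood cell genes, led by Mir451a, held 0.0416% in pup 1 and 0.0299% in pup 2. The genes within each blood list were split in direction by TMM-scaled ratio. Of the white blood cell genes, 2 were higher in pup 1 and 2 in pup 2. For the red blood cell genes the numbers were 1 and 1, so the sums do not speak for every gene. Neural genes, led by Mir128-1, held 0.134% in pup 1 and 0.158% in pup 2. Of the 4 neural genes with at least 10 counts in total, 1 was higher in pup 1 and 3 in pup 2. Among the 10 measured neural genes, 4 were at 0 in both libraries, namely Mir124a-1, Mir124a-2, Mir124a-3 and Mir9-2. A value of 0 in both was common, at 1320 of the 1973 listed genes, so this is no trait of the neural list. Reads that map to several places were left out of the counts, so a gene with copies can be undercounted in any list. How far this lowered the values was not tested. None of these other tissue lists had a gene at least 2-fold apart among those with at least 10 counts in total. Over all 373 genes 8.31% were at least 2-fold apart, so a count of 0 in lists this small is near the background. The part of these lists in the Mir140 ratio was not tested.

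Other miRNA genes that have been studied in cartilage or chondrocytes had log2 ratios from -0.87 to 1.25, all below that of Mir140. The list held 44 genes from general knowledge of the field, with 42 measured, 38 of them at a total of 10 counts or more. Some of its genes are also on the fibroblast and smooth muscle, white blood cell or neural list, so its ratios are no measure of cartilage content. Of these 38, 18 had a higher value in pup 1 and 20 in pup 2, with a median log2 ratio of -0.026 beside -0.0059 for all 373 genes. The sign of the list's median turns under total-count scaling, which gave 0.11. It also turns without the genes that share 20 bases with another miRNA gene, 24 of the 42 measured. The 18 genes that remained, each with at least 10 counts in total, gave 0.074. At least 2-fold higher in pup 1 were 2 of the 38, Mir365-2 with 10 counts in pup 1 and 5 in pup 2, and Mir211 with 15 in pup 1 and 9 in pup 2. Both were named after their values were seen, both are near the minimum of 10 counts, and 0 of the 38 were at least 2-fold higher in pup 2. Over all 373 genes the shares were 6.43% higher in pup 1 and 1.88% higher in pup 2, so the list stood near the background.

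The most abundant genes of the list were near equal between pups. Mir335, inside Mest, had 56708 CPM in pup 1 and 45784 CPM in pup 2. Mir322, studied in growth plate chondrocytes as well as in myoblasts, had 30431 CPM in pup 1 and 27925 CPM in pup 2. Their log2 ratios were 0.18 and -0.0076. Mir23b had a mean of 15861 ± 83.5 CPM, Mir22 of 15371 ± 658 CPM and Mir337 of 5928 ± 476 CPM (SD, n = 2 each), with log2 ratios of -0.12, -0.044 and -0.30 in that order. Mir675, made from the H19 RNA and known to depend on SOX9 in human chondrocytes, had 118 CPM in pup 1 and 136 CPM in pup 2, a log2 ratio of -0.34. Its value was the lower in pup 1, and nothing about Mir140 or Mir455 is drawn from this 1 gene. The part of cartilage or of SOX9 in any of these ratios was not tested. Mir675 was chosen after its values were seen. In pup 1 4 of the 42 measured genes of the list had a higher CPM than Mir140 and 8 had a higher CPM than Mir455. In pup 2 these numbers were 10 and 9.

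**Figure D4:**
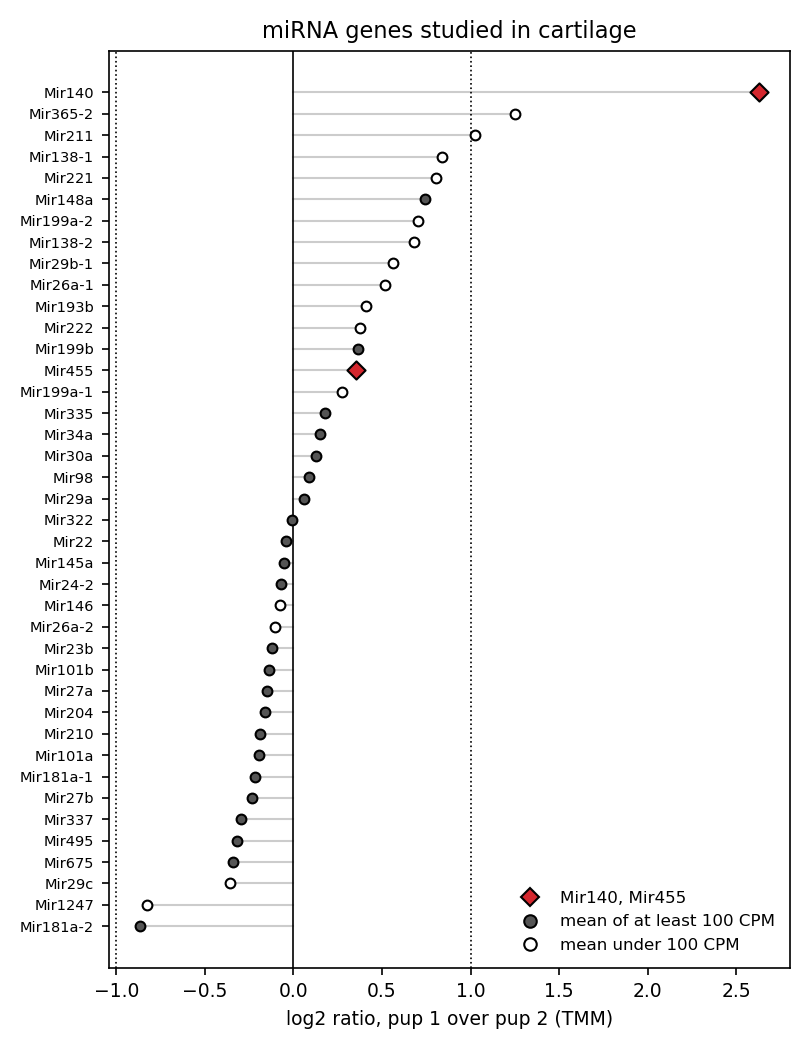
Log2 ratio of pup 1 over pup 2 after TMM scaling (horizontal axis) for the 38 genes of the cartilage list with at least 10 counts in total (circles, open where the mean is under 100 CPM) and for Mir140 and Mir455 (diamonds); dotted lines mark 2-fold. Mir140 stands at 2.63, the next point is Mir365-2 at 1.25, and Mir455 lies at 0.35 among the list.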

How the data were processed

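Small RNA was sequenced from 2 skeletal muscle samples of postnatal day 0. The deposited values were raw read counts per miRNA gene, made for each library on mm10 with annotation M4, per the labels and the deposited descriptions; which aligner and counter were used is not given in the sources used here. The tables have 3 columns of counts, the first being the sum of the others in every gene, and the second was read as the gene's own strand. The 4 leading lines of reads outside genes were left out of library sizes. Names, places and hosts came from GENCODE M21, an annotation of the same build, to which 1894 of 1973 identifiers matched.

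CPM was computed over all gene rows. Log2 ratios of pup 1 over pup 2 were scaled with TMM factors of 1.05 for pup 1 and 0.955 for pup 2 (edgeR 4.0.16, R 4.3.3) after a pseudocount of 0.5, for genes with at least 10 counts in total. Intervals are exact (scipy 1.17.1), at 95%, and cover counting error. With 1 group no condition was tested and no p-value was computed. The ratio and interval functions were tested on simulated data. RNAfold 2.7.2 folded the hairpin. Alternatives were DESeq2 1.42.0 size factors, other scalings, strands, denominators, pseudocounts and filters, and each library alone.

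The genes, lists and rules were chosen with earlier results of these data known. Named genes were Mir140 and Mir455, their rank neighbours, the 5 genes nearest in level and in ratio, genes with at least the ratio of Mir140 and a mean of at least 100 CPM, the 5 highest of the cartilage list and those of it at least 2-fold apart with a mean of at least 100 CPM, all epithelial genes, the highest of every other list, genes sharing a seed, and miRNA genes within 10 kb. Mir294, Mir365-2, Mir211 and Mir675 were named outside this rule, after their values were seen. So were Mir124a-1, Mir124a-2, Mir124a-3, Mir9-2, Mir1a-1, Mir133a-1 and Mir133a-2. Of the lists, Mir9-1, Mir24-1, Mir142 and Mir1a-2 were not analysed here.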

Additional observations from a re-analysis of the deposited data

Results flagged for a closer look

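Counts on the strand opposite Mir497b, whose mature miRNA shares its seed with miR-140-3p, were not used in any level above. They averaged 603 CPM of own-strand counts over the libraries, with 2520 counts in pup 1 and 2749 in pup 2, above the limit of 3 that a count of 0 allows. Reads of the opposite strand do not carry the sequence of miR-497b, so these counts are no measure of it. Their source was not tested.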

How the results depend on the processing

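Mir140 and Mir455 kept the direction of their log2 ratio under every scaling, strand and pseudocount tried. Total-count scaling gave 2.76 for Mir140 and 0.48 for Mir455, and the scaling to striated muscle counts, chosen after seeing the data, gave 2.89 and 0.62. Scaled to 1000000 of all reads, the mean was 1969 for Mir140 and 617 for Mir455, because that denominator is larger, and with either library alone the means ran from 966 to 6539 CPM for Mir140 and from 986 to 1377 CPM for Mir455. The mean epithelial share ran from 0.0230% to 0.569% with either library alone. Since 1 of 2 values can never be farther than 1 SD from their mean, these ranges say nothing about stability. Genes at least 2-fold higher in pup 1 numbered 98 with a minimum of 1 count and 12 with 50, those higher in pup 2 numbered 117 and 1, and those in either direction 215 and 13, because the filter sets how many low genes are counted. The median of the cartilage list was 0.11 under total-count scaling and 0.074 without genes that share 20 bases; the first is the shift of all ratios, and the cause of the second was not tested. No paired analysis was possible because the labels form only 1 group. Low depth limits genes near 10 counts, not Mir140 or Mir455.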
